A study of Mus musculus with 4 samples.

Results

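The NF-κB subunits are the 5 genes *Rela*, *Relb*, *Rel*, *Nfkb1* and *Nfkb2*. They were taken as every array probe whose annotated gene symbol, current or older, is 1 of these names, which gave 5 probes, 1 for each gene, of 45281 probes and 20289 named genes in all. Of these, 4 were detected in both conditions and tested, and the *Nfkb2* probe was detected in neither. The samples were RAW264.7 mouse macrophages, of which 2 arrays came from cells given 10 ng/ml of *Salmonella minnesota* LPS for 4 h and 2 from untreated cells. The labels give 0 h for the untreated cells, while the methods of the study give the same incubation for both. By the same methods the cells were RAW G9, a single clone of the line that carries 2 reporters in both conditions, a GFP-RelA fusion driven by the mouse *Rela* promoter and an mCherry driven by the *Tnf* promoter. The study describes the replicates as biological duplicates. Whether the *Rela* probe also reads the GFP-RelA transcript was not tested.

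NF-κB is a family of dimeric transcription factors that share the Rel homology region, which binds DNA and holds the subunits together. RelA, RelB and c-Rel, the products of *Rela*, *Relb* and *Rel*, also carry a transactivation domain, whereas *Nfkb1* and *Nfkb2* encode long precursors that are shortened to DNA-binding subunits without one. In resting macrophages most dimers are held in the cytoplasm by IκB proteins. LPS, acting through the receptor TLR4, leads to degradation of IκB and entry of the dimers into the nucleus, a step that needs no new subunit mRNA and that an expression array does not measure. The genes of the family are themselves known to be transcribed in response to NF-κB, apart from *Rela*, which is mostly described as constitutive.

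The promoters are shown because κB sites, the short motif that the dimers bind, are known in several of these genes. RefSeq windows of 300 bases, from 250 bases before a gene start to 50 bases from the start on, matched 3 of the 5 genes by symbol, in 5 windows of build GRCm38.p6. *Relb* and *Nfkb1* had no window, so a link between these sequences and the response of the probes to LPS was not tested. The κB consensus was searched for on both strands, with overlapping matches joined, and matches are in capitals. It was present in 8.46% of all 32851 windows of this length. The first *Nfkb2* window lies on chr19:46304487-46304786, the second on chr19:46305445-46305744, both on the plus strand, the *Rel* window on chr11:23770920-23771219 on the minus strand and the *Rela* window on chr19:5637291-5637590 on the plus strand.
Rel: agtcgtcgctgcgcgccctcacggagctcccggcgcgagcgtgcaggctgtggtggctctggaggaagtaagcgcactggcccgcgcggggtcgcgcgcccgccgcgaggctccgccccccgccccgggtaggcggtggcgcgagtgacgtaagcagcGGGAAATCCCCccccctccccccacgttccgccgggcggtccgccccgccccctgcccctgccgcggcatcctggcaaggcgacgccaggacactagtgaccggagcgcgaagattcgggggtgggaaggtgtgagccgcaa
Rela: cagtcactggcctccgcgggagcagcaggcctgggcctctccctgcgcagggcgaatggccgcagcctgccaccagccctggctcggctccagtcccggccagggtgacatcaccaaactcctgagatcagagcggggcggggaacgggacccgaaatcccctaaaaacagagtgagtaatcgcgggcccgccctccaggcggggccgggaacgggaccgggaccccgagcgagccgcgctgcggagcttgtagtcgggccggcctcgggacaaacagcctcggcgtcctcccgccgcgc
Nfkb2, first start: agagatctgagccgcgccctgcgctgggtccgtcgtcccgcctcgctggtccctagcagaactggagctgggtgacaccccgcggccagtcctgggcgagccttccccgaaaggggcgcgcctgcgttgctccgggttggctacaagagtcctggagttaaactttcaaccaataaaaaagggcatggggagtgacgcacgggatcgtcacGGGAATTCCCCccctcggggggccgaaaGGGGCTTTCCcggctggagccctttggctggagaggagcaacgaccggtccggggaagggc
Nfkb2, second start: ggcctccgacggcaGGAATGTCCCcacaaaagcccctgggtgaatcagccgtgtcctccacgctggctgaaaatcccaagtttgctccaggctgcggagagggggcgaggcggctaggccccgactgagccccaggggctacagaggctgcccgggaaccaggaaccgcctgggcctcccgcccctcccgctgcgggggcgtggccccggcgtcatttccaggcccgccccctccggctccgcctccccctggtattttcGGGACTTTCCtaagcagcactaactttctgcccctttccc

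In the *Rel* window the consensus began 92 bases before the start, with GGGAAATCCC, which matches on both strands, and a second match overlapped it by all but 1 base. The *Rela* window held no match, which says only that these letters are not in this window. The first *Nfkb2* window held GGGAATTCCC, which began 39 bases before the start with a further overlapping match, and GGGGCTTTCC, which began 11 bases before it. The second held a match on the minus strand 236 bases before its start and GGGACTTTCC 10 bases after it, and the third *Nfkb2* window, which is not printed, overlaps the second and held the latter match again. These matches describe the letters and not binding, which was not measured.

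Each array held the signal of all 45281 probes, with a median of 104.1 to 117.8 units, and 16380 to 17892 probes of an array had a detection p under 0.1, the threshold of the study. The detection p places the signal of a probe against that of the negative controls on its array. Divided by the median, the 95th percentile came to 6.59 and 7.47 with LPS and to 10.1 and 12.0 in untreated cells, so the bright probes of the untreated arrays were brighter before normalization. The untreated pair shared 1 slide, and the LPS pair came from 2 further slides, so slide and LPS cannot be told apart for any value given here. Of 10 macrophage markers 9 were detected, with *Mrc1* not detected, against none of 5 T cell, 3 B cell and 5 fibroblast markers and 2 of 4 neutrophil markers (*Elane* and *S100a8*) with a named probe. In bulk samples a change in the share of cells that express a gene and a change of RNA per cell cannot be told apart.

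**Figure D1:**
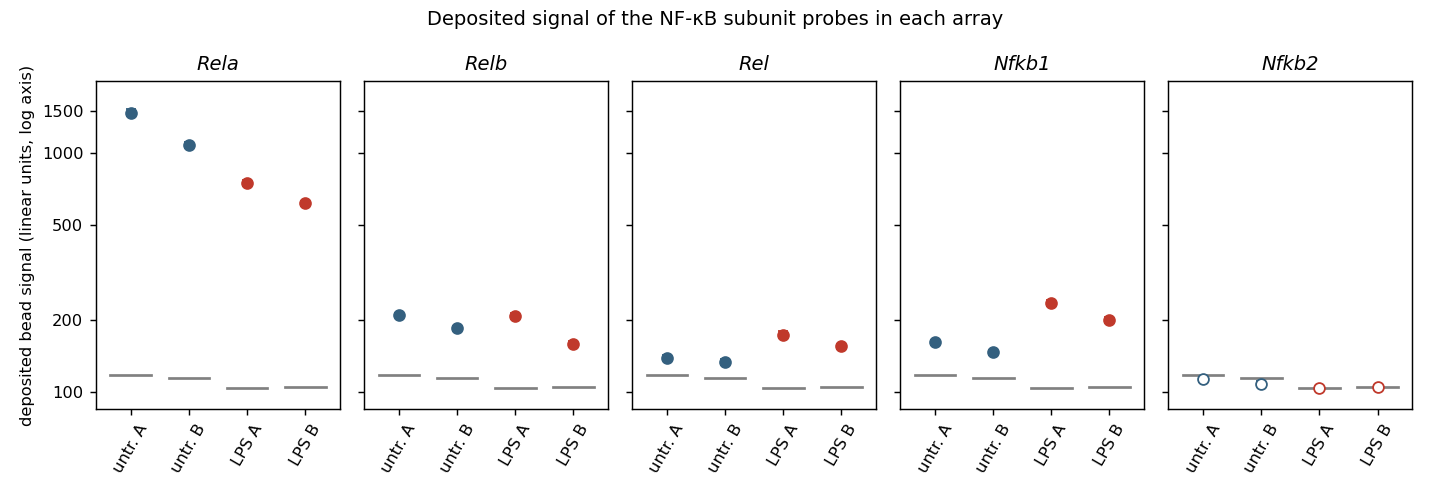
Deposited bead signal (linear units on a log axis) of the 5 subunit probes in the 2 untreated (blue) and 2 LPS (red) arrays, with bars for the standard error over the beads of a probe, which mostly lie within the points. Grey lines mark the median signal of all probes of that array and open points have a detection p of 0.1 or more. The *Rela* signal lies far above the array median in every array, and the *Nfkb2* points lie on or just under it.

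*Nfkb1* was higher with LPS by 2.08, *Rel* by 1.73 and *Relb* by 0.84 on the log2 scale, while *Rela* had a log2 change of -0.11 and did not pass. The *Relb* change was lost under some settings, given with its values, among them median scaling over all probes (0.0080). These are 3 of 4 tested subunit probes, against 13.5% of the 17211 tested probes that were called higher, and 0 of 4 were called lower against 19% of them. All 4 were detected in both conditions, so none entered the test through 1 condition alone. The values are log2 signals after background correction and quantile normalization, tested with limma and adjusted over all tested probes by the method of Benjamini and Hochberg, at a threshold of 0.05. Levels of different probes are not compared, since a probe's brightness depends on its own sequence.

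RelA is the transactivating subunit of the dimer with p50 and the one tagged in the reporter of the study. The *Rela* probe had signals of 750.3 and 615.6 units in the LPS arrays A and B and of 1476 and 1081 units in the untreated arrays A and B. Before normalization both untreated arrays were thus above both LPS arrays, with means 1.87-fold apart. Its rank among all probes of an array hardly moved, at percentiles 94.8 and 94.5 with LPS and 95.2 and 94.7 without. On the normalized log2 scale it was at 9.78 and 9.64 with LPS and 9.91 and 9.74 in untreated cells, and the 2 conditions overlapped. The mean was 9.71 ± 0.10 (SD, n = 2) with LPS against 9.82 ± 0.116 (SD, n = 2). The change of -0.11 had a standard error of 0.139 and a 95% interval from -0.44 to 0.22 (adjusted p = 0.577, limma). With median scaling over all probes *Rela* was lower by 0.87 (adjusted p = 0.00146), where the median change of all tested probes was -0.62, so that *Rela* lay 0.25 under that median (change minus median -0.25). As reported the median of all tested probes was -0.07, and with median scaling over the tested probes, 0.18.

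c-Rel is the subunit named after the viral oncogene and is best known from lymphocytes and from the induction of *Il12b* and *Il2*. The *Rel* probe had signals of 173.7 and 155.4 units with LPS and 139.2 and 133.6 units in untreated cells. Here both LPS arrays were above both untreated arrays even before normalization, although the medians of the LPS arrays were lower. The untreated signals were near the array background, at 1.18 and 1.17 times the array median with detection p of 0.00534 and 0.00427, and the probe ranked at percentiles 71.0 and 72.0 of an array, against 82.8 and 82.1 with LPS. Its normalized log2 values were 6.89 and 6.76 with LPS and 5.05 and 5.15 in untreated cells, with no overlap. The mean rose from 5.10 ± 0.0716 (SD, n = 2) to 6.83 ± 0.0886 (SD, n = 2), a 3.32-fold difference with a 95% interval from 2.67 to 4.13 (log2 change 1.73, standard error 0.134, adjusted p = 0.00012, limma). The size depends on the background correction, since the log2 change was 0.68 without it, 0.64 by the log2 values as deposited and 1.08 with median scaling over all probes, each still past the threshold.

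*Nfkb1* encodes the precursor p105, which acts as an IκB-like inhibitor and gives rise to p50, the partner of RelA. Its probe was matched to the gene by symbol and is annotated to a full-length cDNA clone and not to a RefSeq transcript. Which part of the *Nfkb1* transcript it reads was not tested. The probe had signals of 235.7 and 200.9 units with LPS and 161.6 and 146.4 units in untreated cells. Both LPS arrays exceeded both untreated arrays on the deposited scale, and the percentile within an array was 86.7 and 86.04 against 75.1 and 74.9. The normalized log2 values were 7.68 and 7.54 with LPS and 5.54 and 5.52 without. From a mean of 5.53 ± 0.0144 (SD, n = 2) it rose to 7.61 ± 0.0941 (SD, n = 2), 4.22-fold with a 95% interval from 3.40 to 5.23 (log2 change 2.08, standard error 0.132, adjusted p = 4.6e-05, limma). Among the tested probes this was the change at percentile 98.1, against 97.5 for *Rel* and 93.2 for *Relb*. Without background correction the log2 change was 1.02, from the deposited log2 values 0.98 and with median scaling over all probes 1.31, all past the threshold.

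RelB is the transactivating partner of p52 in the slower, noncanonical branch of the pathway. The *Relb* probe had signals of 207.4 and 159.2 units with LPS and 210.1 and 185.2 units in untreated cells. These overlap, and the deposited signals themselves show no higher level with LPS. Within an array, however, the probe ranked at percentiles 85.2 and 82.6 with LPS and at 79.5 in both untreated arrays. The normalized log2 values were 7.38 and 6.86 with LPS and 6.28 and 6.28 without, and did not overlap. The LPS arrays differed from each other more for this probe than for the other 3, as the means of 7.12 ± 0.371 (SD, n = 2) and 6.28 ± 0.00519 (SD, n = 2) show. The difference of 0.84 (standard error 0.188, 1.79-fold with a 95% interval from 1.32 to 2.43) passed with an adjusted p of 0.014 (limma). It was 0.0080 (adjusted p = 0.978) with median scaling over all probes and 0.42 (adjusted p = 0.0518) in the deposited log2 table, and it missed the threshold without untreated replicate A (0.81, adjusted p = 0.0864), without untreated replicate B (0.84, adjusted p = 0.0919) and with no filter on detection (adjusted p = 0.0789). Without background correction it was 0.43 (adjusted p = 0.0467).

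**Figure D2:**
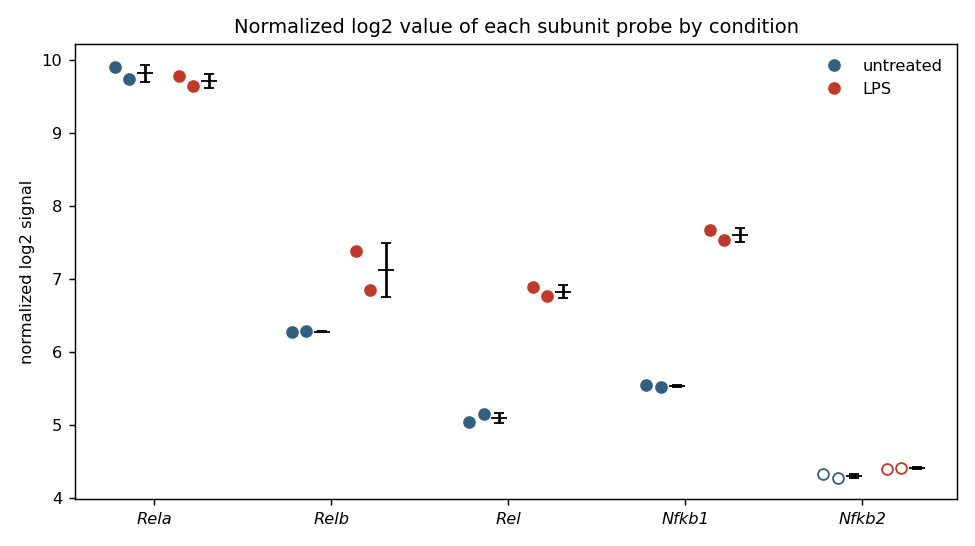
Normalized log2 signal of each subunit probe in the 2 untreated (blue) and 2 LPS (red) arrays, with black bars for the mean ± SD (n = 2). Open points were not detected, and heights are comparable within a gene only. The LPS points lie above the untreated points for *Relb*, *Rel* and *Nfkb1*, and the conditions overlap for *Rela*.

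*Nfkb2* encodes p100, which retains RelB in the cytoplasm until it is processed to p52. Its probe had signals of 103.6 and 105.0 units with LPS and 113.3 and 108.3 units in untreated cells and did not exceed the array median on any array. The detection p was 0.295 and 0.287 with LPS and 0.486 and 0.686 without. The probe was therefore not above background on any array, and no fold is given. A single probe at background does not show that the transcript was absent.

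To describe the other subunits relative to *Rela*, the normalized log2 value of the *Rela* probe was taken from that of each probe in the same array. A scaling factor of the array cannot change this difference. An unequal range of signals between arrays, as given above before normalization, can change it, and its effect was not tested. *Rela* was chosen as the reference with earlier results of these data known, so the differences are not independent of the changes given above. *Nfkb1* minus *Rela* was -2.11 and -2.10 in the LPS arrays and -4.36 and -4.22 in the untreated arrays. *Rel* minus *Rela* was -2.89 and -2.88 with LPS against -4.86 and -4.60. *Relb* minus *Rela* was -2.40 and -2.79 against -3.63 and -3.46. Each of the 3 differences was thus higher in both LPS arrays than in either untreated array, by 2.19, 1.84 and 0.95 on the log2 scale with standard errors of 0.208, 0.209 and 0.209. All 3 passed in limma, with the largest adjusted p at 8.25e-05 for *Relb*, where 16% of 17210 probes were called higher relative to *Rela*. That p is too small, since every probe shares the noise of the *Rela* probe and the fit takes this noise as known. The exact permutation test over the 4 arrays, two-sided, gave p = 0.333 for each, the smallest value that 2 against 2 arrays allow. With median scaling, over all or over the tested probes alike, the differences were 2.18, 1.95 and 0.88. Over all probes *Relb* itself changed by 0.0080 and *Rela* by -0.87, so the *Relb* difference there does not show a rise of *Relb*. Without background correction they were 1.12, 0.78 and 0.53.

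**Figure D3:**
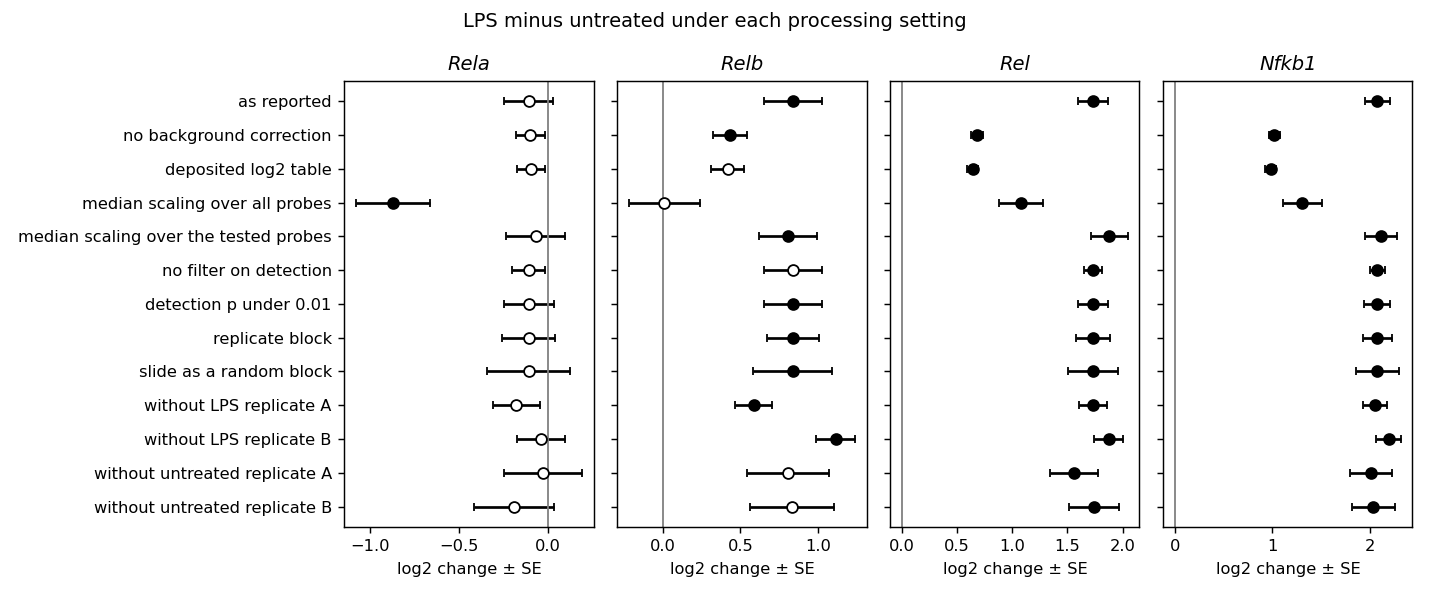
Log2 change, LPS minus untreated, of the 4 tested subunit probes under each processing setting, with bars for the standard error and filled points for an adjusted p under 0.05. *Nfkb1* and *Rel* are filled throughout, *Relb* is open in 5 of 12 alternatives and *Rela* is filled with median scaling over all probes alone.

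Genes around the subunits were taken as 3 lists, of which each gene is represented by its brightest tested probe. The shares of all tested probes set beside them count every probe, not the brightest of each gene. The list of pathway regulators holds IκB proteins, IKK subunits and the kinases, ubiquitin ligases and deubiquitinases around them. Of its 27 tested genes 14 passed as higher and 3 as lower, while 10 missed the threshold, against 13.5% of all tested probes higher and 19% lower. The share higher was 51.9%, and the share lower was under that of all tested probes. The list had a median log2 change of 0.52 against -0.07 over all tested probes. With median scaling over all probes 8 of its genes were higher and 12 lower, beside 819 and 10095 of the 17211 tested probes. *Nfkbiz*, whose product IκBζ is a nuclear cofactor of p50, rose by 4.68 (adjusted p = 1.82e-06), the deubiquitinase gene *Tnfaip3* by 3.44 and the IKK-related kinase gene *Ikbke* by 2.44. *Map3k14*, which encodes NIK, the kinase that drives processing of p100, was the gene with the greatest fall (log2 change -1.09, adjusted p = 0.00177). The TAK1-binding protein genes *Tab1* and *Tab3* changed by -0.52 and -0.46 (adjusted p = 0.024 and 0.0446), and neither passed without untreated replicate A (adjusted p = 0.224 and 0.18) or B (0.137 and 0.348). The 3 dimmer *Tab1* probes changed by -0.44, -0.67 and -0.77, the first without passing (adjusted p = 0.0935).

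The second list holds ligases that act on IκB and on the precursors and nuclear co-regulators of the subunits. Here 0 of 16 tested genes passed as higher and 2 as lower, while 14 missed the threshold, and both shares were under the 13.5% and 19% of all tested probes. The list had a median log2 change of -0.15. With median scaling over all probes 13 of its genes were lower, beside 10095 of the 17211 tested probes. *Ing4*, an inhibitor of growth family gene described as a repressor of RelA, fell by 1.19 (adjusted p = 0.00129), but 2 of its 3 dimmer probes did not pass (log2 change -0.12 and -0.19) and the other changed by -0.80. *Sirt1*, which encodes a deacetylase of RelA, changed by -0.80 (adjusted p = 0.0105), and by -0.85 and -0.72 without untreated replicates A and B, where it missed the threshold (adjusted p = 0.0543 and 0.108). Of known NF-κB target genes, all 21 tested were higher, against 13.5% of all tested probes, with a median log2 change of 2.91, or 2.78 with the 6 genes not detected in untreated cells at their lower bound. *Cxcl2*, a neutrophil chemokine gene, rose by 8.14 (adjusted p = 7.45e-07, limma) and by 5.20 in its dimmer probe. The brighter probe had an untreated mean of 4.73, near the lowest detected values of the untreated arrays (4.56 and 4.57). Its log2 change was 5.99 without background correction and 5.96 by the log2 values as deposited. *Il1b* and *Il1a*, which encode interleukin 1 cytokines, were not detected in untreated cells by their brightest probes. On the background-corrected scale the folds of these probes were at least 465 and 171 (adjusted p = 3.89e-07 and 7.45e-07, limma). These bounds hold for that scale only. Without background correction the log2 changes of the same *Il1b* and *Il1a* probes were 6.63 and 5.28, and by the log2 values as deposited 6.62 and 5.23. The dimmer *Il1a* probe had a smaller log2 change, 6.54 against 7.70. Those 6 genes entered the test through the LPS arrays alone. Of the genes with a named probe, *Birc3*, *Fbxw11*, *Cxcl1* and *Il12b* were not detected and not tested.

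**Figure D4:**
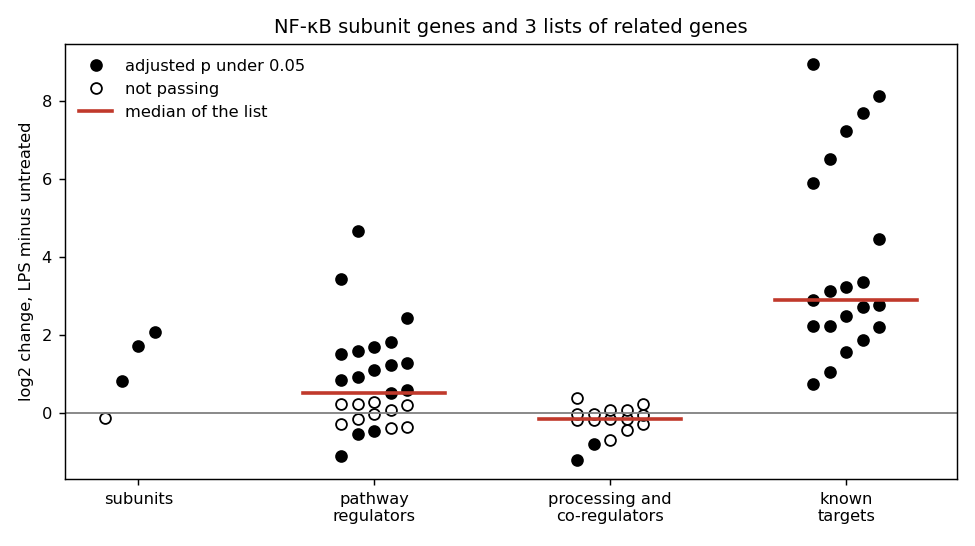
Log2 change, LPS minus untreated, of the 4 tested subunit genes and of the tested genes of 3 lists, 1 point for each gene at its fitted value, filled for an adjusted p under 0.05. Red lines mark the median of a list, 0.52 for pathway regulators, -0.15 for processing and co-regulator genes and 2.91 for known targets, and the points of the last list all lie above 0.

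For each tested member the genes with the most similar profile were found as those with the smallest root mean square difference, over the 4 arrays, between log2 values centred on their own mean, among 9725 genes. For *Nfkb1* these were *Malt1*, *Rnf213* and *Rnf19b* (0.0198, 0.031 and 0.0451 log2 units). For *Rel* they were *Rapgef2*, *Gm7609* and *Samhd1* (0.0262, 0.053 and 0.0535), for *Relb* *Nes*, *Rab43* and *Itpkb* (0.0274, 0.0334 and 0.034), and for *Rela* *Gm4294*, *Noc2l* and *Rnpep* (0.0104, 0.0107 and 0.0132). Within 0.2 log2 units lay 93 genes for *Nfkb1*, 147 for *Rel*, 342 for *Relb* and 3931 for *Rela*, of the 9725 compared.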

How the data were processed

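Probe signal intensity was read out by the authors from scanned Illumina mouse whole-genome bead arrays with GenomeStudio 2011.1. The deposited intensity is linear and not subtracted for background, and the detection p-value, also deposited, was set by the negative controls of an array. The deposited table of log2 values shares 1 distribution over the arrays, and how it was normalized is not given in the sources used here. It served as an alternative. The bead standard error and the other deposited measure, the number of beads, were read for display. Probes were named from the platform annotation, and 35784 had 1 symbol, updated through RefSeq names (28620 by identifier, 2637 by accession, 2128 by symbol, 2343 by older synonym, 56 kept).

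Signals were corrected and quantile normalized with neqc of limma 3.58.1 (R 4.3.3, offset 16). The 17211 probes that both arrays of a condition detected (p under 0.1) were tested with lmFit and eBayes across all of them, with Benjamini-Hochberg adjustment at 0.05. A fold given as at least sets the bright mean against, per array, the higher of the probe's value and the lowest detected value. The script was tested on simulated arrays that shared the same background and range of signals, with no slide effect. That test therefore does not bear on the unequal signal range or the slides of the real arrays. The exact permutation test used scipy 1.17.1. Alternatives were other background, scaling, detection and block settings and leaving out each array. Named list genes are the 3 greatest rises and 2 greatest falls of a list among called genes, or all of 5 or fewer. The members, the lists and *Rela* as the reference were chosen with earlier results of these data known. The planned comparison of proteins was not made. The number of arrays limits the precision.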

Additional observations from a re-analysis of the deposited data

How the results depend on the processing

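*Nfkb1* and *Rel* passed as higher in all 12 alternatives, with log2 changes of 2.01 to 2.19 and 1.56 to 1.87 when an array was left out, and the range for *Relb* was 0.59 to 1.12 and for *Rela* -0.19 to -0.03. *Relb* did not pass in the deposited log2 table (0.42), with median scaling over all probes (0.0080), with no filter on detection (0.84) or without either untreated array. *Rela* passed as lower with median scaling over all probes (-0.87), where 1 subunit probe was lower. That scaling gave 819 tested probes higher and 10095 lower (7.5% of calls higher), with a median change of -0.62, and 8 regulators higher, 12 lower and 13 co-regulators lower, against 2332 and 3273 probes (41.6%) as reported. Median scaling over the tested probes gave 6002 higher and 2789 lower (68.3% of calls higher), a median of 0.18 and 1 co-regulator higher and 4 lower. The cause of these shifts was not tested. With no filter 1 co-regulator was lower. The correlation of A minus B between conditions was 0.145 over the tested probes, and the labels do not say that a letter marks a shared batch. With the replicate letter as a block, 2639 probes were higher and 3689 lower, 4 co-regulators were lower and the log2 changes of the subunits were -0.11, 0.84, 1.73 and 2.08 (*Rela*, *Relb*, *Rel*, *Nfkb1*), with no call of a subunit changed. With slide as a random block, added after seeing the data with a correlation of 0.732 set from the spread of the 2 pairs, since limma gave no estimate from 4 arrays, 1225 probes were higher and 1328 lower, 1 regulator and 1 co-regulator were lower, and *Relb* had an adjusted p of 0.0493. When an array was left out, the lone array of its condition was assumed to vary like the other pair, and 1085 to 4032 probes were higher and 1013 to 4859 lower, 12 to 16 regulators were higher and 1 to 6 lower, and 0 to 2 co-regulators were higher and 1 to 5 lower. *Tab3* also missed the threshold without background correction, in the deposited table, with no filter and with slide as a block, *Sirt1* with no filter and with slide as a block, and *Tab1* with slide as a block. The counts of target genes stayed within 20 to 21 higher when an array was left out. Signals of *Rel* and *Nfkb1* near background in untreated cells limit the precision of their folds.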
